A study of Saccharomyces cerevisiae with 17 samples.

Results

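The features described here are 75 reading frames of Saccharomyces cerevisiae that carry only a systematic name in the deposited expression table and that stood higher in the absence of Rrp6. They were drawn from 1639 features with such a name, among 7125 features in all. They were selected on measured values, namely a mean of at least 5 RPM (reads of a feature scaled to the library total) in the 2 rrp6 deletion libraries, and a ratio of at least 2 between that mean and the single BY4741 library of the same experiment, after 1 RPM was added to both. The same 2 limits were passed by 206 of all 7125 features (2.89%). YGR109W-B also passed, at a mean of 60.5 RPM in the rrp6 deletion against 3.41 RPM in BY4741 B, and was left out by name together with 4 further features that did not pass. Since the comparison of the rrp6 deletion with BY4741 B chose the members, its values are given as a description without a test.

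RNA was sequenced from 17 cultures in 3 experiments, each culture washed and then kept for 60 min at its phosphate level. Experiment 1 held a bmh1 deletion at 7.2 mM phosphate (1 library, numbered 2), an spl2 deletion at 0 mM (12, 19 and 20) and at 7.2 mM (7 and 18), and BY4741 at 0 mM (14, 16 and 17) and at 7.2 mM (10, 11 and 13). Experiment 2 held the rrp6 deletion (C and D) and BY4741 B, and experiment 3 a strain called ΔP, which lacks block P of the SPL2 promoter (A-3), and BY4741 A-1, all at 7.2 mM. Every strain was BY4741 or a derivative of it, a haploid laboratory strain, and LEU2, MET17 and URA3, which it lacks, were at 0 in every library. BMH1 encodes a 14-3-3 protein and SPL2 a regulator of phosphate uptake. How the deletions were made and how many clones of each were used were not given in the sources used here.

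Rrp6 is a 3′ to 5′ exonuclease of the nuclear exosome, the complex that trims the ends of ribosomal, small nuclear and small nucleolar RNAs and degrades short-lived transcripts made outside or across genes. Yeast without Rrp6 lives, and many transcripts that are otherwise degraded soon after they are made can then be detected. Reading frames that kept a systematic name are in part genes of unknown function and in part short frames, some of them overlapping other genes, for which no protein is known.

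Of the 75 members, 54 (72%) have an entry in the RefSeq annotation of assembly R64, matched by systematic name, and 13 of these now have a gene symbol there. The other 21 are named only. Members lay on 14 chromosomes by their names, with 16 on chromosome XII. Of the members, 10 carry names from YLR154 to YLR162, the part of chromosome XII where R64 places the ribosomal DNA, out of 17 features of the table with such names.

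The sequences below show how members relate to structural RNA genes, written 5′ to 3′ on the coding strand from R64. The authors' genome build is not given in the sources used here, so only the names were matched. YLR154C-G (chrXII:462522-462671, minus strand, 150 bases) lies whole within the 25S ribosomal RNA gene RDN25-2 and on its strand, which the capitals mark. YLR154C-H (chrXII:468827-468958, minus strand, 132 bases) covers 105 bases of the 5S ribosomal RNA gene RDN5-2 on the opposite strand, shown in capitals. YJL047C-A (chrX:349044-349178, minus strand, 135 bases) begins with 49 bases of the small nucleolar RNA gene SNR60, again in capitals and on the same strand.

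YLR154C-G: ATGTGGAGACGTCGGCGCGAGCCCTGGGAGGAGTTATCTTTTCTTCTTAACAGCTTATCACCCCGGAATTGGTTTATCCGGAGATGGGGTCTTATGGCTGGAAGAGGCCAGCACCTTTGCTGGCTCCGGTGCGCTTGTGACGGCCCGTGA
YLR154C-H: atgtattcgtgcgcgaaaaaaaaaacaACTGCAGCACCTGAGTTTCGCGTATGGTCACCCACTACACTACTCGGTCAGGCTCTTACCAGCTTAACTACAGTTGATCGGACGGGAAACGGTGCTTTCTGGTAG
YJL047C-A: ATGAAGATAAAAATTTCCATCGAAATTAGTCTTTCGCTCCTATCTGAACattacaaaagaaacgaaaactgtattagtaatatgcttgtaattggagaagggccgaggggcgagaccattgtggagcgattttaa

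YLR156C-A, YLR157C-C and YLR159C-A have the sequence of YLR154C-H with 0 differing bases, each opposite another copy of the 5S gene. Reads of these 4 members cannot be assigned to 1 copy, so their values are 1 measurement divided among names. YLR154C-G has the same limit, since the 25S gene is repeated.

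Transcripts of the 10 ribosomal DNA members made up the larger part of the members' RNA in the rrp6 deletion. Their levels summed to 3788 and 4330 RPM in rrp6 C and D, against 133 RPM in BY4741 B. In RNA from whole cultures, more cells with a transcript and more of it per cell cannot be told apart. YLR154W-F had 1716 and 1958 RPM in the rrp6 libraries, against 52.8 RPM in BY4741 B. YLR154W-A had 875 and 1021 RPM in the rrp6 libraries and 35.4 RPM in BY4741 B. YLR154W-E showed the widest contrast of the region, with 328 and 356 RPM without Rrp6, against 2.71 RPM in BY4741 B, a ratio of 92.5. YLR154C-G, within the 25S gene, had 413 and 485 RPM in the rrp6 deletion and 20.8 RPM in BY4741 B. YLR154W-B had 324 and 342 RPM without Rrp6, against 17.0 RPM in BY4741 B. The frames opposite the 5S genes were lower in level: YLR154C-H had 18.9 and 22.4 RPM in the rrp6 libraries, against 0.468 RPM in BY4741 B. YLR162W, which starts 103 bases after a 5S gene, had 60.1 and 76.4 RPM without Rrp6, against 2.31 RPM in BY4741 B. Its downstream neighbour RRT15, which is no member, had 96.1 and 114 RPM in the rrp6 deletion and 2.00 RPM in BY4741 B. RDN37-1, the whole unit transcribed as the precursor of ribosomal RNA, moved with these members. It was listed at 9627 and 10812 RPM in the rrp6 libraries and at 401 RPM in BY4741 B. RDN18-1 and RDN25-1, genes of mature ribosomal RNA within such a unit, were listed at 0 in these libraries. Precursor and mature RNA can therefore not be told apart in the values of RDN37-1. TAR1, a gene on the opposite strand within the 25S gene, stood at 1830 and 1963 RPM in the rrp6 deletion, against 140 RPM in BY4741 B. How reads were counted by strand is not given in the sources used here, so transcripts of the 2 strands cannot be told apart for these overlapping features.

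The other 65 members summed to 1937 and 1932 RPM in rrp6 C and D, against 360 RPM in BY4741 B. YJL047C-A, which shares its first bases with SNR60, had the highest ratio of all members, 97.8, with 197 and 199 RPM in the rrp6 libraries and 1.04 RPM in BY4741 B. It stood between 0.835 and 2.40 RPM in each of the other 14 libraries. SNR60 itself was listed at 0 in all libraries of experiments 1 and 2. YPR092W had 60.3 and 65.9 RPM without Rrp6 and 0.535 RPM in BY4741 B, and YLR365W 33.0 and 33.5 RPM without Rrp6 and 0.267 RPM in BY4741 B. YGR273C was close to undetected elsewhere: it had 25.4 and 27.2 RPM in the rrp6 libraries, 0.0668 RPM in BY4741 B, and between 0.0368 and 0.227 RPM in the other 14 libraries. The level equal to 3 reads was 0.0672 to 0.172 RPM in these libraries, so those values rest on few reads. YCR064C had 45.6 and 41.3 RPM without Rrp6 and 1.64 RPM in BY4741 B, and YLR334C 25.9 and 23.9 RPM without Rrp6 and 0.601 RPM in BY4741 B. The 10 highest ratios were those of YJL047C-A, YLR154W-E, YPR092W, YLR154W-F, YLR365W, YLR154W-A, YGR273C, YLR162W, YLR154C-G and YLR154W-B.

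Several members with a clear level in BY4741 B differed by smaller factors. YKL151C, now named NNR2, an enzyme that repairs damaged nicotinamide nucleotides, had 268 and 265 RPM in the rrp6 deletion, against 59.9 RPM in BY4741 B. YPL245W had 129 and 133 RPM without Rrp6 and 36.4 RPM in BY4741 B. YNL024C, now EFM6, a methyltransferase that acts on translation elongation factor 1A, had 77.4 and 71.0 RPM in the rrp6 libraries, against 9.72 RPM in BY4741 B. YLR173W, now TAG1, a vacuolar membrane protein, stood at 52.3 and 52.5 RPM without Rrp6 and at 17.4 RPM in BY4741 B. YMR018W, now PEX9, a receptor for peroxisomal proteins, had 19.6 and 14.0 RPM in the rrp6 deletion, against 6.65 RPM in BY4741 B. YCR041W, beside the mating type locus and overlapping MATALPHA1 and TAF2 in R64, had 65.46 and 63.99 RPM without Rrp6 and 10.5 RPM in BY4741 B. R64 carries the alpha form of that locus, while genes of mating type a summed to 913 to 2061 RPM and those of mating type alpha to 29.9 to 58.0 RPM in these libraries.

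Over the 75 members the median level was 20.0 RPM in the rrp6 deletion and 2.47 RPM in BY4741 B, and the median ratio was 4.49. The ratio was at least 5 for 36 members, at least 10 for 20 and at least 20 for 9. The 2 rrp6 cultures gave close values, with C over D between 0.748 for YLR159C-A and 1.40 for YMR018W and a median of 0.979. Per kilobase of R64 length, which makes levels comparable between genes, the 54 annotated members ran from 8.53 to 2995 RPM per kb in the rrp6 deletion. YLR154C-G was the highest on that scale, YJL047C-A had 1468 and YKL151C 263 RPM per kb. Just inside the limit on the ratio stood YPL041C (2.01), YPR153W (2.05) and YOL155W-A (2.07), and just outside it YEL028W (1.99), YNL179C (1.97) and YOR318C (1.91). On the limit of 5 RPM the nearest members were YBR144C (5.06 RPM), YJL077W-B (5.23 RPM) and YEL008W (5.24 RPM), and the nearest features below it YJL043W (4.95 RPM), YAR070C (4.72 RPM) and YDR182W-A (4.48 RPM).

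**Figure D1:**
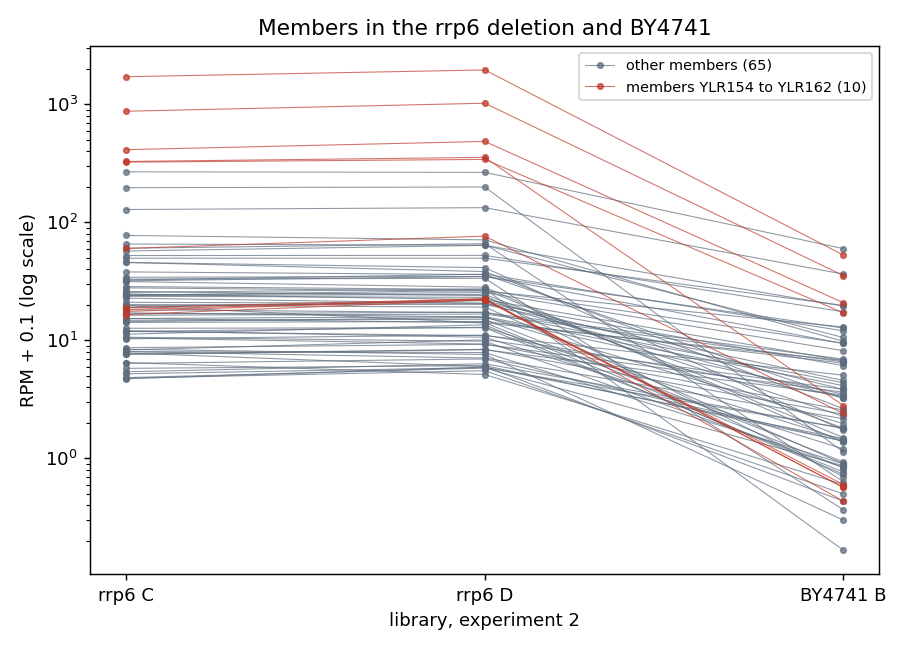
RPM of each of the 75 members (RPM + 0.1, log scale) in rrp6 C, rrp6 D and BY4741 B, 1 line per member, with the 10 members named YLR154 to YLR162 in red. The lines run level between the 2 rrp6 libraries and drop to BY4741 B, where YGR273C is the lowest at 0.0668 RPM.

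For 5 of the 54 annotated members (9.26%) a gene next to them in R64 also passed both limits, as did a neighbour of 40 of 926 other annotated features with a systematic name only (4.32%). With 21 members not in R64 nothing is read from these shares. The neighbours were RRT15 beside YLR162W with a ratio of 35.3, SLZ1 beside YNL195C with 3.74, IDP2 beside YLR173W with 3.55, RPR2 beside YIR014W with 2.17, and TIR4 beside YOR008C-A with 2.15. In the first 4 cases the neighbour lies downstream on the same strand, at distances of 133 to 476 bases. SLZ1 is a gene of sporulation and IDP2 encodes the cytosolic NADP-dependent isocitrate dehydrogenase. Around 3 other members of high ratio no neighbour passed the limits: TAF1 and EFG1, on either side of YGR273C, had ratios of 0.837 and 1.31. RTT101 and UBX6, on either side of YJL047C-A, had 1.45 and 0.883, and GRX8 and RPS22B, on either side of YLR365W, had 1.33 and 0.626.

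The BY4741 libraries of experiments 1 and 3 played no part in the choice of members, but the rrp6 values set beside them here are the ones that chose the members, so the counts that follow were largely fixed by that choice and are no independent support. Both rrp6 libraries stood above all 3 BY4741 libraries of experiment 1 at 7.2 mM for 75 of 75 members, and the median ratio to their mean was 4.99 on RPM + 1. With BY4741 A-1 of experiment 3 and BY4741 B included, both rrp6 libraries were above all 5 BY4741 libraries for 73 of 75 members. Among the 5648 features with at least 5 RPM in the rrp6 deletion this was so for 953 (16.9%), which were not selected in that way, so nothing is read from the difference. The comparison across experiments was not tested, because experiment and strain cannot be told apart there. The exceptions were YDR340W, with 10.5 and 9.74 RPM in the rrp6 libraries and 206 RPM in BY4741 A-1, and YPR153W, with 7.51 and 8.25 RPM in the rrp6 libraries and 11.0 RPM in BY4741 A-1.

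**Figure D2:**
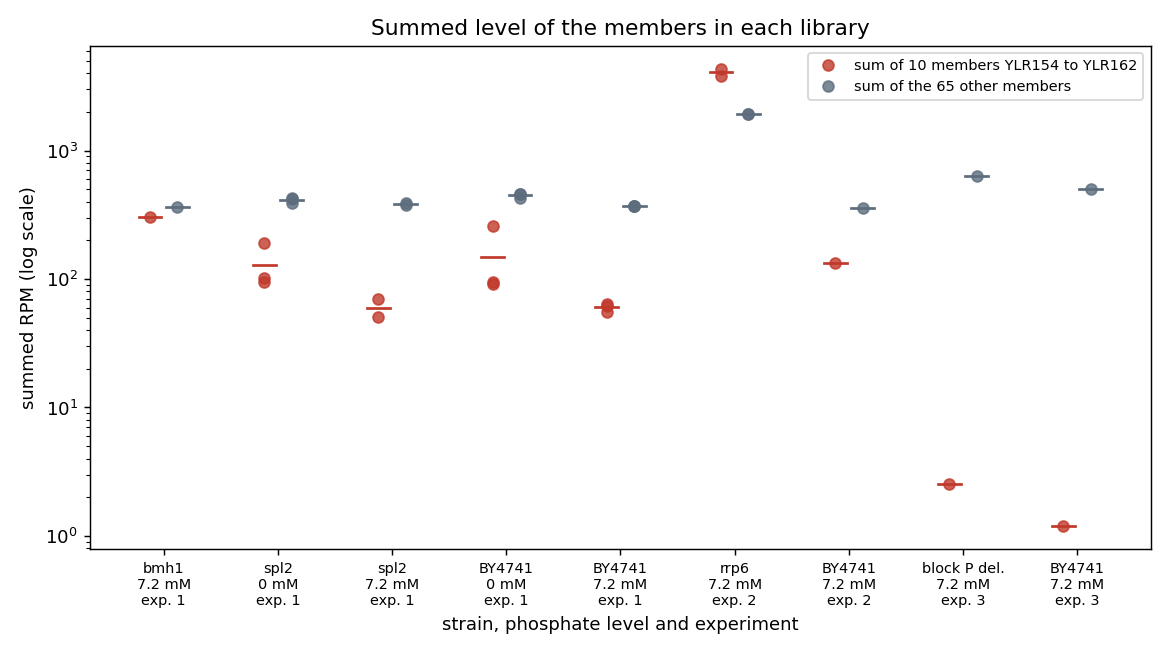
Summed RPM (log scale) of the 10 members named YLR154 to YLR162 (red) and of the 65 other members (grey) in each of the 17 libraries, with a bar at each group's mean. The ribosomal DNA members reached 304 RPM in the bmh1 deletion, 260 RPM in BY4741 library 17 at 0 mM and 192 RPM in spl2 library 20 at 0 mM, and 2.54 RPM in ΔP and 1.19 RPM in BY4741 of experiment 3.

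In BY4741 the members were then compared between 0 mM and 7.2 mM phosphate. With limma on log2(RPM + 1), adjusted over all tested features, 26 of 60 tested members were higher and 1 was lower at 0 mM. Of all 6015 tested features, 60.9% were higher and 6.68% were lower. The median log2 fold change was 0.25 for the members and 0.21 for all tested features. With TMM scaling, which sets the bulk of features at no change, the median of all features was 0.01. The share of higher among all calls was 46.9% in place of 90.1%. Of 59 tested members 11 were then higher and 3 lower, beside 1085 higher and 1228 lower of all 6012 tested features. Those 11 were all among the 26. The 3 lower were YKR075C, also called on RPM, and YGR035C and YPL245W, called only with TMM scaling. Of the 26, YER135C and YLR162W reached the filter of 1 RPM only in the 0 mM group, where they are high, so their calls are partly set by the filter.

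The members outside the ribosomal DNA that kept their call under that scaling were the clearest. YPR078C, a frame of unknown function on chromosome XVI, had 4.77, 4.66 and 4.58 RPM at 0 mM, against 2.28, 2.05 and 1.73 RPM at 7.2 mM. The groups did not overlap, and the log2 fold change was 0.91 ± 0.11 (SE, adjusted p = 1.20e-05, limma). The share of all features without overlap was not counted, so nothing is read from missing overlap here or below. YOL155W-A, beside the hexose transporter gene HXT11, had 8.50, 8.48 and 7.38 RPM at 0 mM, against 4.49, 4.24 and 4.17 RPM at 7.2 mM (log2 fold change 0.78 ± 0.09). NNR2 (YKL151C) had 67.5, 67.7 and 71.8 RPM at 0 mM, against 52.7, 52.9 and 46.1 RPM at 7.2 mM (log2 fold change 0.44 ± 0.06). YCR064C had 4.18, 3.06 and 3.01 RPM at 0 mM, against 1.90, 1.40 and 1.03 RPM at 7.2 mM, with a log2 fold change of 0.86 ± 0.19. Again no library of one level reached into the other. YNL146C-A and YDR018C, which R64 names MLG1, both rose by 0.60. On RPM YKR075C was the member that fell, with 19.0, 18.5 and 15.9 RPM at 0 mM, against 23.8, 21.3 and 19.9 RPM at 7.2 mM (log2 fold change -0.27 ± 0.10, adjusted p = 0.0304, limma). It lost its call without BY4741 library 10, 13 or 17 and without the filter on low values. Its adjusted p ran from 5.58e-05 to 0.136 over the alternatives tried.

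Of the 10 ribosomal DNA members 6 were tested, and all 6 were higher at 0 mM, by 0.61 to 1.32 on the log2 scale. By their names these 6 lie in 1 region, and its level moved with RDN37-1. They are therefore not 6 separate observations, here or in the comparisons below. With TMM scaling 3 of the 6 were called, with DESeq2 4 and with edgeR 5. YLR154W-F had 24.6, 26.3 and 89.1 RPM in libraries 14, 16 and 17 at 0 mM, against 16.7, 16.4 and 12.2 RPM at 7.2 mM. The groups did not overlap, but library 17 lay far above the other 2 at 0 mM, for this member and for the summed level of the region, which was 91.6, 95.6 and 260 RPM at 0 mM against 64.4, 61.5 and 55.8 RPM at 7.2 mM. RDN37-1 showed the same order, with 258, 292 and 831 RPM in libraries 14, 16 and 17. The log2 fold change of YLR154W-F was 1.32 ± 0.41 (adjusted p = 0.0100, limma), and without library 17 it was 0.73 with an adjusted p of 0.0573. YLR154W-B lost its call in the same way (adjusted p = 0.138 without library 17), and 4 of the 6 stayed called; without library 11 or 13 it was 5 of the 6. Whether the amount of ribosomal RNA left in each library has a part in these values was not tested.

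**Figure D3:**
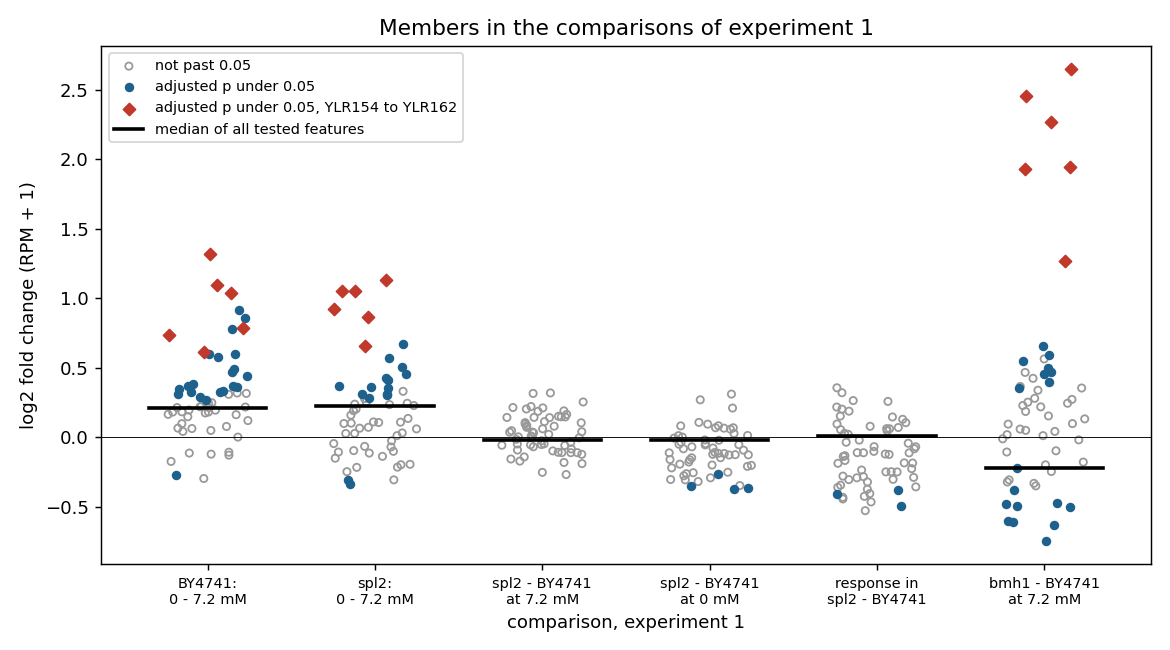
Log2 fold change (RPM + 1) of each tested member in the 6 comparisons of experiment 1, with filled symbols for an adjusted p under 0.05, red diamonds for the ribosomal DNA members, and a black bar at the median of all tested features. In both phosphate comparisons and in the bmh1 deletion the highest value was that of a ribosomal DNA member, at 1.32, 1.13 and 2.65. Members outside the ribosomal DNA reached 0.91, 0.67 and 0.66. In the phosphate comparisons these lay within the range of the ribosomal DNA members. No member passed for the spl2 deletion at 7.2 mM.

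In the spl2 deletion, 19 of 60 tested members were higher and 2 were lower at 0 mM than at 7.2 mM. Of all 6033 tested features 57.3% were higher and 8.75% lower, with medians of 0.12 for the members and 0.23 for all features. Under TMM scaling the split was 6 higher and 8 lower among 61 tested members, beside 1268 higher and 1398 lower of all 6028 tested features. The median of all features was then 0.01, and the higher calls were 47.6% of all calls in place of 86.7%. All 6 higher members were among the 19. They were YPR078C, YJL120W, YGR126W, YML037C, YLR162W and YLR154W-E. Of the 8 lower members, YKR075C and YNL195C were also called on RPM. The other 6 were called lower only with TMM scaling: YCR041W, YCR085W, YJL160C, YMR194C-A, YPL041C and YPL245W. YJL120W had 2.09, 1.86 and 1.70 RPM at 0 mM, against 0.789 and 0.827 RPM at 7.2 mM, and YLR162W 1.81, 1.73 and 3.01 RPM at 0 mM, against 0.872 and 1.10 RPM at 7.2 mM. Both reached the filter of 1 RPM in 2 libraries only through the 0 mM group, so their calls are partly set by it. YPR078C had 2.89, 3.41 and 3.93 RPM at 0 mM, against 1.95 and 1.96 RPM at 7.2 mM (log2 fold change 0.57 ± 0.13). YGR126W had 5.25, 5.98 and 5.36 RPM at 0 mM, against 3.69 and 3.48 RPM at 7.2 mM (log2 fold change 0.51 ± 0.10). YML037C, now LFT1, had 10.6, 12.7 and 11.8 RPM at 0 mM, against 8.34 and 8.16 RPM at 7.2 mM (log2 fold change 0.45 ± 0.10). None of these 3 had overlapping groups, but the share of all features without overlap was not counted, so nothing is read from that. On RPM, lower at 0 mM were YNL195C (log2 fold change -0.33 ± 0.14) and YKR075C (-0.31 ± 0.12). Their groups stood at 5.71, 4.41 and 4.67 against 7.18 and 5.75 RPM and at 15.3, 21.2 and 20.0 against 23.3 and 23.2 RPM. The call of YNL195C was lost without library 7, 19 or 20 and that of YKR075C without library 7, 12 or 18. Both were also lost when the compared groups were fitted alone.

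The ribosomal DNA members rose in the spl2 deletion as well, 6 of 6 tested, by 0.66 to 1.13, while with TMM scaling, edgeR or DESeq2 2 of the 6 were called. YLR154W-F had 30.2, 20.2 and 61.9 RPM in libraries 12, 19 and 20 at 0 mM, against 19.2 and 11.4 RPM at 7.2 mM. Library 20 was the high one here, and RDN37-1 stood at 288, 300.4 and 620.5 RPM in the same 3 libraries. Without library 20, 3 of the 6 remained called, without library 18 at 7.2 mM likewise 3, and without library 7 it was 4. Higher in both strains at 0 mM were 13 members, which is 50% of the BY4741 calls and 68.4% of the spl2 deletion calls. Over all features these shares were 73.3% and 77.7%. With TMM scaling 2 members, YPR078C and YLR162W, were higher in both strains. The same count over all features was not made for that scaling, so nothing is read from it. Among the 13, 7 lay outside the ribosomal DNA. On RPM YKR075C was lower in both strains, and with TMM scaling YKR075C and YPL245W were. Features lower in both strains were not counted over the whole table.

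With phosphate no difference between the spl2 deletion and BY4741 was called in the members, from 2 and 3 libraries. At 7.2 mM, 0 of 59 tested members passed between the spl2 deletion and BY4741 with limma, beside 0.5% of all 6002 tested features. None of the 59 had an unadjusted p under 0.05 with limma or with DESeq2, and 1 had with edgeR, which like DESeq2 called 0 after adjustment. With limma it was 2 of 60 under TMM scaling, 6 of 75 without the filter and 5 of 57 without spl2 library 18, again with 0 after adjustment. The members' log2 fold changes ran from -0.27 to 0.32 outside the ribosomal DNA, with a median of 0.04.

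At 0 mM, 4 of 58 tested members were lower in the spl2 deletion than in BY4741 and 0 were higher. Of all 6031 tested features 7.44% were lower and 5.64% higher. The members were YPR078C (-0.37 ± 0.11), YPL185W (-0.36 ± 0.11), YOL114C (-0.35 ± 0.10), now PTH4, an enzyme of the peptidyl-tRNA hydrolase family, and NNR2 (-0.27 ± 0.06, adjusted p = 0.0128, limma). NNR2 had 59.8, 58.2 and 53.9 RPM in the spl2 deletion, against 67.5, 67.7 and 71.8 RPM in BY4741. PTH4 had 6.33, 6.95 and 6.69 RPM in the spl2 deletion, against 8.91, 10.2 and 7.41 RPM in BY4741. Neither pair of groups overlapped, though how many of all features share this was not counted. The count changed with single libraries: 1 member was lower and 0 higher without BY4741 library 14 or 16 or spl2 library 19 or 20. Without spl2 library 12 it was 1 lower and 1 higher, and without BY4741 library 17 it was 3 lower and 1 higher. Calls over all features changed too, from 789 to 369 and 228 without BY4741 library 14 and 16. They were 282 and 474 without spl2 library 19 and 20, 610 without spl2 library 12 and 914 without BY4741 library 17.

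The difference between the strains in their phosphate response was tested as an interaction. Among 63 tested members 3 had a smaller rise in the spl2 deletion than in BY4741 and 0 a larger one, beside 7.73% and 6.8% of all 6071 tested features. For NNR2 the response was lower by 0.38 ± 0.09 in the spl2 deletion (adjusted p = 0.0137, limma), where 59.8, 58.2 and 53.9 RPM at 0 mM stood beside 54.7 and 54.6 RPM at 7.2 mM. YNL146C-A, a short frame that ends 2 bases from LSM7, had 11.3, 11.3 and 12.7 RPM at 0 mM and 10.3 and 11.4 RPM at 7.2 mM in the spl2 deletion, against 14.4, 17.3 and 12.4 RPM at 0 mM and 9.52, 8.61 and 9.68 RPM at 7.2 mM in BY4741. Its response was lower by 0.50 ± 0.15 in the spl2 deletion (adjusted p = 0.0377, limma). YOL155W-A rose in both strains, and its response was lower by 0.41 ± 0.13 in the spl2 deletion (adjusted p = 0.0476, limma). One member was left without BY4741 library 10, 13, 14 or 16 or without spl2 library 12 or 19, and 2 without BY4741 library 11. Over all features 882 were called in the full fit. That count ran from 506 without BY4741 library 16 to 1080 without BY4741 library 17.

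**Figure D4:**
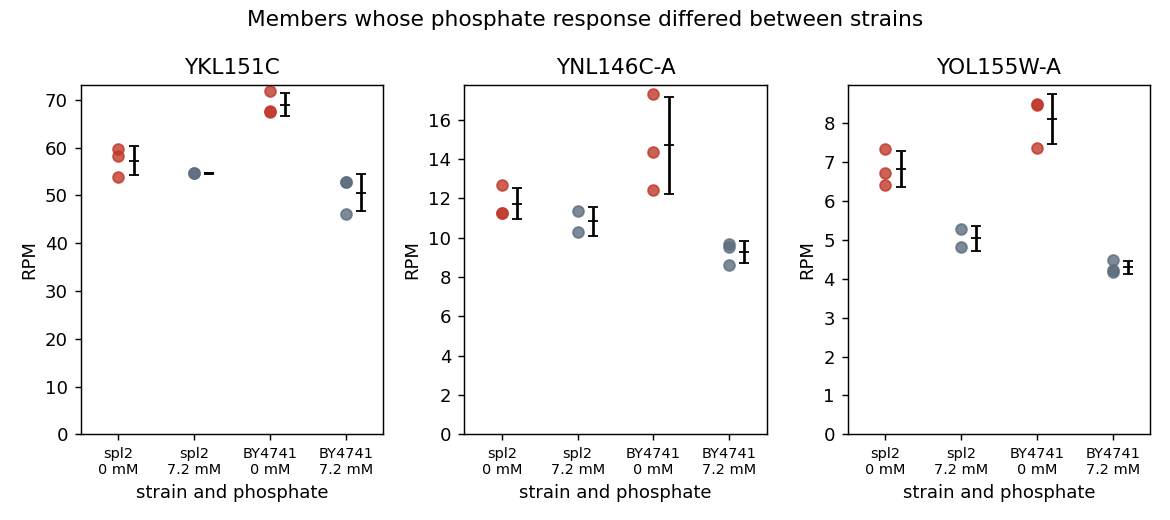
RPM of YKL151C (NNR2), YNL146C-A and YOL155W-A in the libraries of experiment 1, with the spl2 deletion left of BY4741 and 0 mM (red) left of 7.2 mM (grey) in each strain; bars give the mean and SD of 2 or 3 libraries. NNR2 averaged 57.3 RPM at 0 mM and 54.7 RPM at 7.2 mM in the spl2 deletion, against 69.0 and 50.6 RPM in BY4741.

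The bmh1 deletion, which removes the major 14-3-3 protein, was sequenced as 1 library. The fit lends it the spread of the replicated groups, so how cultures of this strain vary is not known, a difference of the strain and one of this library cannot be told apart, and the calls below describe that library. With limma, 14 of 57 tested members were higher and 10 lower than in BY4741 at 7.2 mM. Of all 5987 tested features 15.2% were higher and 48.8% were lower, with a median of -0.22, against 0.13 for the members. With TMM scaling the median log2 fold change was 0.31 for the members and 0.00 for all tested features, so the balance of directions depends on the scaling.

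The ribosomal DNA members led again. YLR154W-F had 99.0 RPM in the bmh1 deletion, against 16.7, 16.4 and 12.2 RPM in BY4741, a log2 fold change of 2.65 ± 0.57. Single libraries of 1 group also lay far apart for this member, with 24.6, 26.3 and 89.1 RPM in BY4741 at 0 mM. YLR154W-E had 15.0 RPM in the bmh1 deletion, against 2.55, 1.65 and 1.64 RPM in BY4741 (log2 fold change 2.46 ± 0.30). All 6 tested members of the region stood higher in this library. RDN37-1 rose with them, at 894 RPM in the bmh1 deletion, against 203, 181 and 167 RPM in BY4741, so the 6 are not separate observations. Outside the region, 8 members were higher, among them YOL097W-A (0.66 ± 0.16), YCR041W (0.59 ± 0.13), YGL230C (0.55 ± 0.17) and PTH4 (0.50 ± 0.14). YOL097W-A had 8.49 RPM in the bmh1 deletion, against 5.63, 5.25 and 4.27 RPM in BY4741. YCR041W had 11.8 RPM in the bmh1 deletion, against 7.94, 7.79 and 6.82 RPM in BY4741.

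Lower in the bmh1 library were 10 members. YNL195C, upstream of SLZ1, had 3.34 RPM there, against 6.53, 6.37 and 5.92 RPM in BY4741 (log2 fold change -0.74 ± 0.17). YGL081W had 2.54 RPM in the bmh1 deletion, against 4.74, 4.48 and 4.26 RPM in BY4741 (-0.63 ± 0.13). YHL018W, now MCO14, had 1.84 RPM in the bmh1 deletion, against 3.70, 3.48 and 2.79 RPM in BY4741 (-0.60 ± 0.16). TAG1 (YLR173W) had 15.2 RPM in the bmh1 deletion, against 22.8, 21.9 and 21.0 RPM in BY4741 (-0.50 ± 0.09). NNR2 had 36.0 RPM in the bmh1 deletion, against 52.9, 52.7 and 46.1 RPM in BY4741 (-0.48 ± 0.09). The rest were YLR171W (-0.61 ± 0.25), YML037C (-0.50 ± 0.13), YGR126W (-0.47 ± 0.13), VLD1 (YIR014W, -0.38 ± 0.16), a vacuolar subunit of a ubiquitin ligase, and YPL245W (-0.22 ± 0.08). YLR171W, which reached the filter only in BY4741, and VLD1 lost their calls in 6 of 10 alternatives each, namely without BY4741 library 10 or 13, with a pseudocount of 5, with TMM scaling, with edgeR and with DESeq2. YGR126W and YML037C lost theirs in 2 of 10, with edgeR and with DESeq2, and MCO14 in 1, with DESeq2. YPL245W turned to 0.01 with TMM scaling, with edgeR and with DESeq2, with adjusted p between 0.885 and 0.938, in a range from 0.0208 to 0.938 over its alternatives. Across experiment 1, 12 members were too low to be tested in any of the 6 comparisons, and 23 were tested and called in none.

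Deletion of block P gave no replicate check, with 1 library on each side, and is described by ratios. On RPM + 1, 3 of 75 members were at least 2-fold higher in ΔP than in BY4741 A-1 and 0 at least 2-fold lower, beside 1.04% and 0.0281% of all 7125 features. YKR075C had 83.4 RPM in ΔP, against 23.0 RPM in BY4741, a ratio of 3.63 with a 95% interval of 3.38 to 3.89 from the reads. YGR035C had 19.5 RPM in ΔP, against 4.75 RPM in BY4741 (ratio 4.10, interval 3.51 to 4.80). EFM6 (YNL024C) had 26.9 RPM in ΔP, against 9.16 RPM in BY4741 (ratio 2.94, interval 2.62 to 3.31). These exact intervals cover counting error between the 2 libraries only. In the other 13 libraries of experiments 1 and 2 with Rrp6, YKR075C stayed between 15.3 and 23.8 RPM. Among the 17 members at 5 RPM or more in either library, the lowest ratio was that of VLD1, with 5.96 RPM in ΔP and 7.99 RPM in BY4741 (ratio 0.746, interval 0.627 to 0.885).

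The 2 libraries of experiment 3 stood apart from the rest for these features. Of 40 members with at least 2 RPM in BY4741 of experiment 1, 15 (37.5%) were at 2-fold or more lower in BY4741 A-1 on RPM + 1, against 0 in BY4741 B. Of all 5810 features at that level 8.57% were. Among other features with a systematic name only this was 31.9% in A-1, and among features with another name 4.34%. YOL118C had 0.291 RPM in BY4741 A-1, against 15.3 to 19.4 RPM in the BY4741 libraries of experiment 1. YOL155W-A had 0.0224 RPM in A-1, against 4.17 to 4.49 RPM in experiment 1. The ribosomal DNA members summed to 2.54 RPM in ΔP and 1.19 RPM in A-1, although RDN37-1 stood at 1392 RPM in ΔP and 389 RPM in A-1. YDR340W was higher in experiment 3, at 241 RPM in ΔP and 206 RPM in A-1, against 0.294, 0.287 and 0.732 RPM in BY4741 of experiment 1 and 10.5 and 9.74 RPM in the rrp6 deletion. In all, 51 features were at 0 in all 15 libraries of experiments 1 and 2 and at 1 RPM or more in both libraries of experiment 3. Among them was RDN25-2, the gene within which YLR154C-G lies, at 1438 RPM in ΔP and 437 RPM in A-1. RDN18-1 was another, at 634 RPM in ΔP and 153 RPM in A-1. Conversely, 15 features were at 0 in experiment 3 and at 1 RPM or more in all the others. How reads were assigned in each experiment is not given in the sources used here, so a difference in processing and one in the cultures cannot be told apart.

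**Figure D5:**
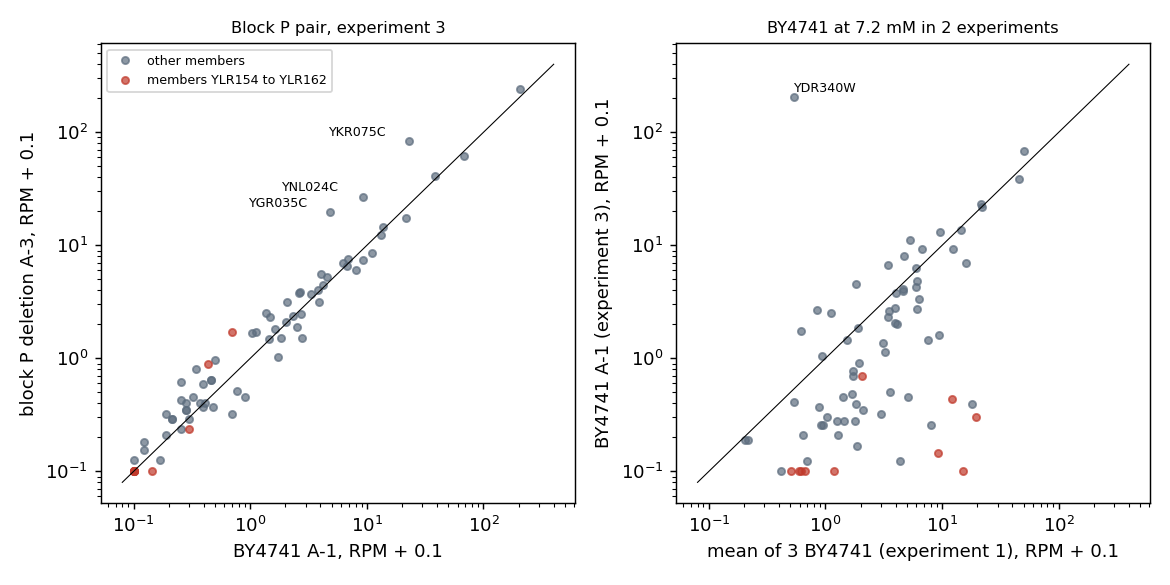
Each member's RPM + 0.1 on log scales, ΔP A-3 against BY4741 A-1 (left) and BY4741 A-1 against the mean of the 3 BY4741 libraries of experiment 1 (right), with ribosomal DNA members in red and the line of equal values. On the left YKR075C, YNL024C and YGR035C lie above the line, and on the right many members lie below it and YDR340W far above it.

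The genes of nuclear RNA surveillance, to which RRP6 belongs, were read beside the members. RRP6 was at 0 in both rrp6 libraries and at 57.8 RPM in BY4741 B. Of the 25 other genes of the list, 3 were at least 2-fold higher in the rrp6 deletion on RPM + 1 and 0 at least 2-fold lower, with a median ratio of 1.11. They were NRD1, which ends non-coding transcripts, with 151 and 174 RPM in the rrp6 libraries against 52.7 RPM in BY4741 B, TRF5, a poly(A) polymerase of the exosome cofactor TRAMP, with 77.5 and 78.0 RPM against 29.5 RPM, and NAB2, a poly(A) binding protein, with 119 and 130 RPM against 55.1 RPM. The phosphate comparisons with limma called 10 of the 26 higher at 0 mM in BY4741 and 21 in the spl2 deletion, with none lower. Of all tested features 60.9% were higher in BY4741 and 57.3% in the spl2 deletion. The median log2 fold change of the list was 0.09 in BY4741 and 0.28 in the spl2 deletion, beside 0.21 and 0.23 for all tested features. With TMM scaling the counts became 1 higher and 12 lower in BY4741, and 8 higher and 2 lower in the spl2 deletion. Over all features that scaling gave 1085 higher and 1228 lower of 6012 in BY4741, and 1268 and 1398 of 6028 in the spl2 deletion. NAB3, a partner of Nrd1, had the largest change in both strains, 0.50 ± 0.05 in BY4741 and 0.66 ± 0.06 in the spl2 deletion. In the interaction test 6 of the 26 responded more in the spl2 deletion, beside 6.8% of all tested features. They included MTR4, the exosome helicase, at 0.49 ± 0.07, DIS3, an exosome nuclease, at 0.37 ± 0.07 and RRP6 at 0.28 ± 0.08. With TMM scaling the count was again 6, beside 508 of all 6063 tested features. The spl2 deletion at 0 mM had 5 of the 26 higher than BY4741, with MTR4 at 0.33 ± 0.05, beside 5.64% of all tested features. At 7.2 mM 0 of the 26 were called, beside 0.5% of all tested features. In the single bmh1 library the median of the list was -0.23 on RPM, beside -0.22 for all features. With TMM scaling it was -0.004, beside 0.001 for all features. RAT1, a nuclear 5′ to 3′ exonuclease, stood in that library at a log2 fold change of -0.81 on RPM and MTR4 at -0.64. The 10 genes of cytoplasmic decay had ratios of 0.810 to 1.07 in the rrp6 deletion. Of these, 9 were called higher at 0 mM in each strain, beside 60.9% and 57.3% of all tested features. With TMM scaling 0 of the 10 were called higher and 1 lower in BY4741, and 6 higher and 0 lower in the spl2 deletion. In the bmh1 library their median log2 fold change was -0.38 on RPM and -0.15 with TMM scaling, beside -0.22 and 0.00 for all tested features.

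Depth, recovered as whole reads, ran from 17456154 to 44667485 reads per library, with the rrp6 libraries at the low end. SPL2 was at 0 to 0.210 RPM in the spl2 deletion and BMH1 at 1.46 RPM in the bmh1 deletion. Genes of sporulating cells summed to 40.8 and 45.5 RPM in the rrp6 libraries, against 23.8 RPM in BY4741 B. Of the 5 genes 2 were at least 2-fold higher on RPM + 1, SPO11 with 19.8 and 17.2 RPM against 7.58 RPM and IME1 with 12.5 and 10.8 RPM against 3.71 RPM, while DIT1 had a ratio of 0.893. Their part in the members' values was not tested.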

How the data were processed

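The table deposited by the authors holds RPM values (read counts relative to the total of their library) of 7125 features in 17 libraries made from mRNA with a stranded kit, per the labels' protocols. For the aligner, counter, genome build and annotation nothing is given in the sources used here. At a tolerance of 0.001 reads all RPM values were whole multiples of 1 read, so reads could be recovered.

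The members and gene lists were chosen with earlier results of these data known. Groups came from the sample labels, and the series' design text gives other replicate numbers for the spl2 deletion. The growth protocol starts the cultures of a strain from a shared overnight culture, and p-values cover only the spread among cultures. Tests used limma 3.58.1 (R 4.3.3) with a trend on log2(RPM + 1), 12 libraries of experiment 1 in 1 model with 7 residual degrees of freedom, and Benjamini-Hochberg adjustment over all tested features at 0.05. The filter asked for 1 RPM or more in a number of libraries equal to the size of the smaller compared group, with a minimum of 2. Fold changes on this scale understate changes of low features. The rrp6 and block P comparisons were described without a test. The fit was tested on simulated data. Alternatives were other pseudocounts, no filter, TMM scaling, fewer libraries, edgeR 4.0.16 and DESeq2 1.42.0 on recovered reads.

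Members were named if they were among the 10 highest in level or ratio, the 10 highest or lowest changes of a comparison, nearest to a threshold, or extreme in the block P pair; other members named were chosen after their values were seen. RefSeq R64 was used by systematic name. Length, position and promoter motifs were to be compared with other features, but only 72% of the members have an R64 entry, under the 80% that such a check needs, so it is void. Exact intervals are at 95%, and they and the floor of 3 reads cover counting error only.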

Additional observations from a re-analysis of the deposited data

Results flagged for a closer look

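The phosphate response of 3 members differed between the spl2 deletion and BY4741 in the interaction test with limma. The response in the spl2 deletion minus that in BY4741 was -0.38 on the log2 scale for YKL151C, -0.50 for YNL146C-A and -0.41 for YOL155W-A. YKL151C kept an adjusted p under 0.05 in all alternatives of that comparison. YNL146C-A lost it in 9 of 18 alternatives, with adjusted p from 0.00849 to 0.100, and YOL155W-A in 11 of 18, with adjusted p from 0.0268 to 0.155. No group held more than 3 libraries, so single libraries were not tested for standing apart from their group.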

How the results depend on the processing

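No paired analysis was possible because the groups compared share no replicate numbers in the labels. The number of members was 114 with a ratio of 1.5 and 116 with a mean of 2 RPM, and 72 to 74 from a single rrp6 library. In BY4741 the members called between phosphate levels were 14 of 59 with TMM scaling, and of 60 tested 16 with edgeR and 14 with DESeq2. Without 1 library they were 23 to 25. Over all features the calls were 4068 of 6015 in the main fit and 2313 of 6012 with TMM scaling. They were 2295 of 6015 with edgeR, 2188 of 6015 with DESeq2, and 3561 to 4001 without 1 library. In the spl2 deletion the members called were 10 with DESeq2 and 15 to 20 without 1 of the 0 mM libraries. All features gave 2549 and 3600 to 3919 calls in these settings, against 3984 in the main fit. Between the strains at 0 mM, 2 members were called with a pseudocount of 0.1, 2 with DESeq2 and 1 to 4 without 1 library. All features gave 783, 1057 and 228 to 914 calls in these settings, against 789 in the main fit. Without 1 library the interaction gave 506 to 1080 calls over all features and 1 to 4 among the members. The bmh1 comparison gave 20 to 25 without 1 library, and the spl2 comparison at 7.2 mM 0 in all alternatives. In the block P pair 8 members passed with a pseudocount of 0.1 and 6 at a fold of 1.5. The log2 fold change of YPL245W in the bmh1 deletion was 0.0068 with TMM scaling, 0.012 with edgeR and 0.0119 with DESeq2. The cause was not tested for any of these. Leaving out the ribosomal DNA members, an alternative chosen after seeing the data, gave 21 members called in BY4741 between phosphate levels, 15 in the spl2 deletion, 0 and 4 for the spl2 deletion at 7.2 and 0 mM, 3 for the interaction and 18 for the bmh1 deletion. Of 50 results for single named members, 25 kept their call under every alternative and 25 lost it under at least 1. Low levels limit many members: 33 of the 75 stood under 2 RPM in BY4741 B.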
